A study of Mus musculus with 6 samples.

Results

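The genes described here are 31 genes of cholesterol synthesis, its regulation, uptake, storage and efflux, out of 17909 genes listed in at least 1 library. They were taken from a written list of gene symbols, matched to the deposited gene identifiers, and all 31 were found and tested. By role they divide into 18 enzymes of synthesis, 7 regulators, 3 genes of uptake, intracellular transport and esterification, and 3 genes of efflux. Their RNA was sequenced in 6 libraries made from mouse hepatic stellate cells in primary culture, the retinoid-storing pericytes of the liver. Cells of the HAS2_Tg group (replicates 4, 5 and 6) carried human HAS2 under the ASMA (alpha smooth muscle actin) promoter, which is active in smooth muscle and activated stellate cells. Cells of the Has2_KO group (replicates 7, 8 and 9) had floxed Has2 deleted through Lrat-Cre, which acts in stellate cells. Both groups were male C57BL/6 mice aged 24 weeks, both had Cd11b-positive cells removed with beads, and both were collected on day 1 of culture, after 4 h of attachment and 14 h in medium with 10% serum. Wild-type cells were not analysed here, and each difference is therefore between a transgenic and a knockout group and cannot be assigned to either of them. The labels do not say whether a library is 1 mouse or a pool, so the p-values measure the spread between these libraries.

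Cells make cholesterol from acetyl-CoA through mevalonate, squalene and lanosterol. When sterol is short in the endoplasmic reticulum, the carrier Scap takes the transcription factors Srebf1 and Srebf2 to the Golgi to be cut and released, and Insig proteins hold the complex back when sterol is plentiful. Surplus cholesterol is esterified by Soat1 for storage in lipid droplets or exported through the transporters Abca1 and Abcg1, whose genes are activated by the oxysterol-sensing nuclear receptors LXRalpha (Nr1h3) and LXRbeta (Nr1h2). Stellate cells keep large lipid droplets of retinyl and cholesteryl esters while quiescent.

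Total expected counts lay between 11961726 and 12423220 per library. Has2 was at 73.0 to 77.5 CPM (counts scaled to a fixed library size) in HAS2_Tg and at 0.0758 to 0.0763 in Has2_KO, and the human transgene was not counted apart from the mouse gene. All 12 stellate cell markers on a written list were detected, and 9 of the 12 were higher in HAS2_Tg. Reln, Hgf and Ngfr were not called. The summed levels were 13860 to 16000 CPM in HAS2_Tg and 7452 to 7769 CPM in Has2_KO. Most of these sums came from Acta2 (5904 against 1196 CPM), which rises with activation, and Dcn (4307 against 3343 CPM). In HAS2_Tg replicate 4 a single gene without a name in the reference made up 1.59% of all counts, where the other libraries had 0.156% or less. Most tested markers of other liver cells were higher in Has2_KO. All 15 tested of 16 macrophage markers were lower in HAS2_Tg, with sums of 13.9 to 16.3 against 614 to 659 CPM, and Clec4f and Timd4 were at 0 in every HAS2_Tg library. All 12 sinusoidal endothelial markers were lower too, with sums of 7.54 to 8.63 against 923 to 1014 CPM and Gpihbp1 at 0 in every HAS2_Tg library. The sums of the hepatocyte (24.2 to 25.9 against 59.4 to 75.1 CPM, 7 of 8 tested lower) and neutrophil lists (30.2 to 34.9 against 45.4 to 49.0 CPM, 3 of 4) moved the same way. So did that of the cholangiocyte list (3.23 to 3.77 against 28.0 to 31.6 CPM, 4 of 4, Krt18 at 0 in HAS2_Tg). Trf (22.1 against 25.6 CPM) held most of the hepatocyte sum in HAS2_Tg and was not called. Cxcr2 (31.4 against 30.8 CPM) held most of the neutrophil sum and was not called. S100a8, Epcam, Krt7 and Krt19 were too low in both groups to be tested. In bulk RNA, fewer cells of a type and less RNA per cell cannot be told apart.

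The transporters Abca1 and Abcg1 and the esterifying enzyme Soat1 were lower in HAS2_Tg, Apoe was not called, and 6 of the 18 synthesis enzymes were higher by less than 1.5-fold under TMM scaling. The summed macrophage (13.9 to 16.3 against 614 to 659 CPM) and endothelial markers (7.54 to 8.63 against 923 to 1014 CPM) were lower in HAS2_Tg beside them, and their part was not tested. Abca1 differed most of the 31 genes, at 13.2 ± 2.44 CPM in HAS2_Tg against 52.2 ± 1.54 CPM in Has2_KO (SD, n = 3). It was followed by Soat1, Abcg1 and Nr1h3, all lower in HAS2_Tg. With TMM scaling, 14 of the 31 genes differed (edgeR adjusted p under 0.05), 8 higher and 6 lower in HAS2_Tg, and their median log2 fold change was 0.00. Of all 13014 genes tested, 40.7% differed, 20.2% higher and 20.5% lower, with a median of -0.01, so differing was about as common among the cholesterol genes as overall. The groups did not overlap in 16 of the 31 genes, against 52.2% of all genes. In a test against a fold of 1.5, which 12.3% of all genes passed, Abca1 and Soat1 were the only 2 of the 31 to pass. The coefficient of variation was larger in HAS2_Tg for 23 of the 31 genes (74.2%), close to the 71.6% of the 12966 tested genes with a level above 0 in both groups.

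The small differences depended on how the libraries were scaled. Scaling by total counts lowered the log2 fold changes by a median of 0.17 over all genes (shift -0.174), and 48.4% of genes then differed, 11.3% higher and 37.1% lower in HAS2_Tg. Under it 15 of the 31 genes differed, 2 higher and 13 lower. The genes that differed under both scalings were Pmvk and Sc5d, which were higher, and Scap, Insig1, Nr1h3, Soat1, Abca1 and Abcg1, which were lower. Mvk, Fdps, Ebp, Dhcr7, Nr1h2 and Scarb1 differed under TMM scaling alone, and Acat2, Sqle, Cyp51, Hsd17b7, Srebf1, Stard4 and Apoe, all lower, under total counts alone. Hmgcs1, Idi1, Fdft1, Tm7sf2, Msmo1, Nsdhl and Srebf2, called under neither, had log2 fold changes of 0.00 to 0.09 with TMM and of -0.17 to -0.08 with total counts. The values below use TMM scaling unless stated.

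**Figure D1:**
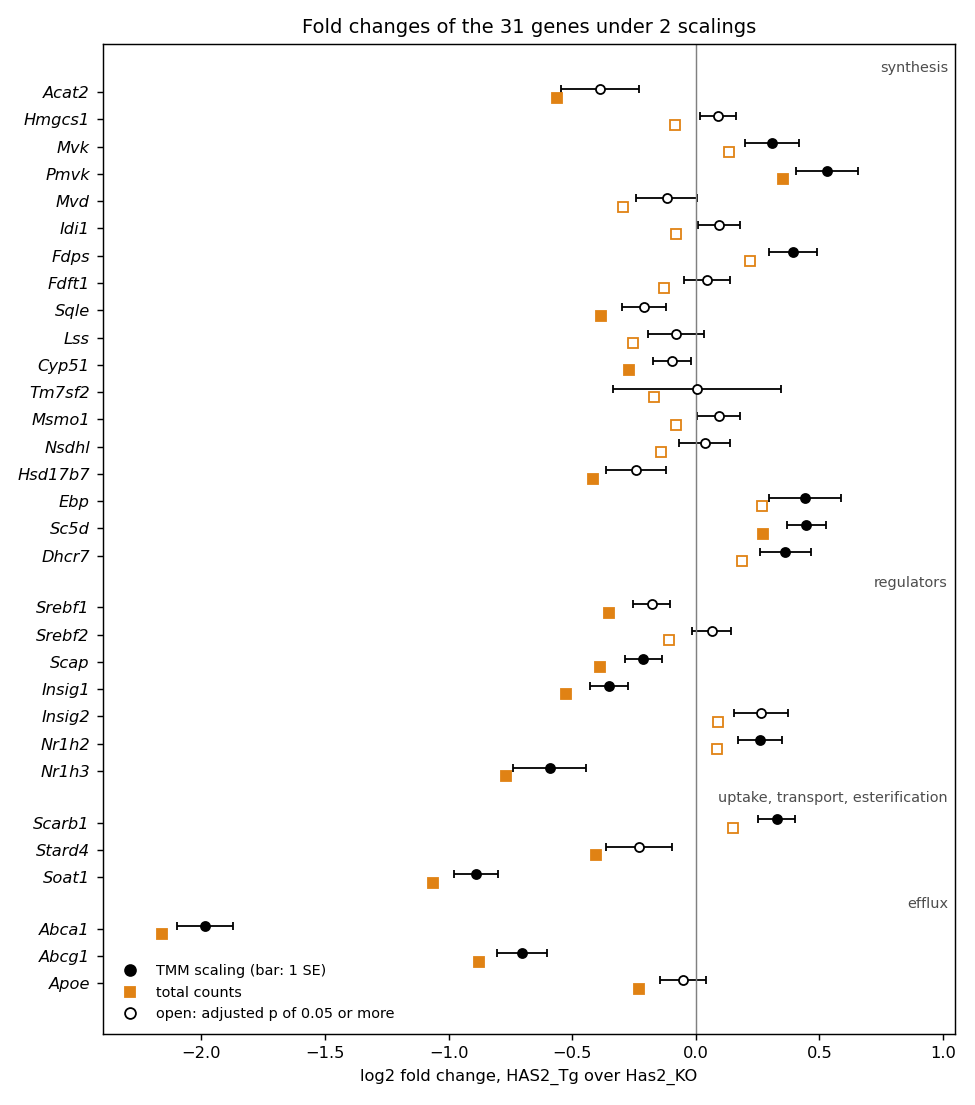
Log2 fold change of each of the 31 genes (HAS2_Tg over Has2_KO), grouped by role; black circles with 1 SE bars are TMM-scaled, orange squares are scaled by total counts, and filled symbols have an adjusted p under 0.05. Abca1 (-1.98), Soat1 (-0.89) and Abcg1 (-0.70) stand left of the other genes under both scalings, and of the synthesis genes Pmvk and Sc5d alone are filled on the right under both.

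Levels can be compared between genes only per length, as in the deposited FPKM values (fragments scaled by transcript length and by depth). Apoe, an apolipoprotein that accepts and carries cholesterol, had by far the highest level of the 31, 421 ± 48.6 FPKM in HAS2_Tg and 494 ± 30.6 in Has2_KO (SD, n = 3). In HAS2_Tg it was followed by the HDL receptor Scarb1 (48.2 ± 2.60 FPKM), Fdps (43.4 ± 5.45), Nr1h2 (39.8 ± 4.09), Msmo1 (37.2 ± 2.80) and Hmgcs1 (33.3 ± 2.32). From Scarb1 to Hmgcs1, the SD ranges of neighbours in that order overlap. Tm7sf2 was lowest in Has2_KO at 1.34 ± 0.55 FPKM, and in HAS2_Tg it stood at 1.19 ± 0.46 beside Abca1 at 1.19 ± 0.22. Nr1h2 was the main LXR gene in both groups, at 37.5 ± 1.93 FPKM in Has2_KO against 4.82 ± 0.41 for Nr1h3. Srebf2, which chiefly drives sterol genes, was at 25.7 ± 0.48 FPKM there and Srebf1, which chiefly drives fatty acid genes, at 20.3 ± 0.27.

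**Figure D2:**
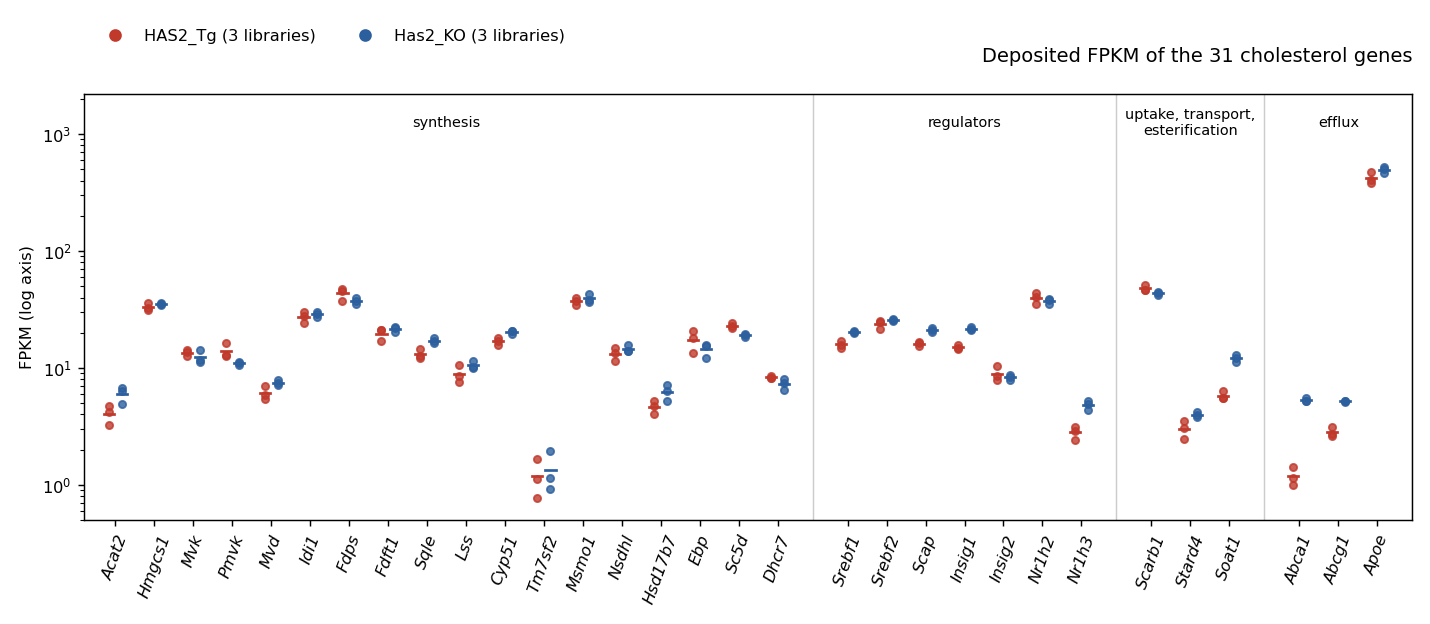
Deposited FPKM (log axis) of the 31 genes in each library, with a short line at the mean of each group (n = 3). Apoe lies far above all others at 383 to 520 FPKM, Tm7sf2 lies near 1 FPKM, and Abca1 lies near 1 FPKM in HAS2_Tg only.

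Of the 18 synthesis enzymes, 6 were higher in HAS2_Tg and none was lower under TMM scaling, against 20.2% and 20.5% of all genes. The 6 were Mvk, Pmvk, Fdps, Ebp, Sc5d and Dhcr7, all by less than 1.5-fold, and the median log2 fold change of the 18 was 0.07. Under total counts the same 18 gave 2 higher and 4 lower and a median of -0.11, so the direction of the group as a whole depended on the scaling. As a share of all counts, which is the same scaling by total counts, the 18 genes together took 0.0731%, 0.0773% and 0.0671% in the HAS2_Tg libraries and 0.0744%, 0.0795% and 0.0750% in Has2_KO, and these ranges overlap.

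In the mevalonate steps, Pmvk, the phosphomevalonate kinase, was at 21.0, 15.9 and 16.0 CPM in the HAS2_Tg libraries and at 12.6, 12.2 and 11.8 CPM in Has2_KO. HAS2_Tg replicate 4 was highest, and the groups did not overlap (log2 fold change 0.53, SE 0.12, adjusted p = 0.00338; 0.35 with total counts, adjusted p = 0.0267). Fdps, the farnesyl diphosphate synthase, was at 64.9, 61.2 and 50.4 against 44.5, 47.6 and 42.4 CPM, again without overlap (0.39, SE 0.10, adjusted p = 0.00488). With total counts Fdps was at 0.22 with an adjusted p of 0.0813. Of its exon bases 77.4% are shared with Gm43738 on the same strand, a gene that no library lists. Mvk, the mevalonate kinase just before Pmvk, was at 26.2, 24.4 and 22.98 against 17.9, 22.8 and 18.7 CPM, so that its groups were barely apart (0.31, SE 0.11, adjusted p = 0.0364). The Mvk call ended without HAS2_Tg replicate 4 or 5 or Has2_KO replicate 7 or 9 (adjusted p 0.0704, 0.0772, 0.17 and 0.14), with the DESeq2 Wald test (0.0657) and with the strict filter (0.0505). Hmgcs1, the HMG-CoA synthase that starts the sterol branch, was at 111.8, 124 and 116 against 113, 109.6 and 108 CPM, which overlap (0.09, SE 0.07, adjusted p = 0.354). The isomerase Idi1 had 0.09 (SE 0.09) and the decarboxylase Mvd -0.12 (SE 0.12). The thiolase Acat2 had -0.39 (SE 0.16, adjusted p = 0.0635), and passed without HAS2_Tg replicate 4 (-0.53, adjusted p = 0.00943) or Has2_KO replicate 9 (-0.51, adjusted p = 0.0315).

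The 3 enzymes that make and close squalene did not pass. Sqle, the squalene epoxidase and a rate-controlling enzyme, was at 35.9, 42.0 and 37.3 CPM in HAS2_Tg and at 43.9, 47.1 and 42.2 CPM in Has2_KO. All HAS2_Tg values lay below the lowest Has2_KO value, by a margin of under 1 CPM at the closest pair (log2 fold change -0.21, SE 0.09, adjusted p = 0.0753). It passed with total counts (-0.38, adjusted p = 0.00357) and without HAS2_Tg replicate 5 (-0.28, adjusted p = 0.0405). The squalene synthase Fdft1 had 0.05 (SE 0.09) and the cyclase Lss -0.08 (SE 0.11). The Fdft1 value is uncertain, because 20.9% of its exon bases (774) are shared with Ctsb on the opposite strand, Ctsb had a mean of 13160 counts per library against 728 for Fdft1, and no source used here says whether counting was by strand.

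Among the 8 enzymes from lanosterol to cholesterol, 3 were higher in HAS2_Tg, namely the sterol isomerase Ebp, the desaturase Sc5d and the reductase Dhcr7. Of the 7 enzymes up to farnesyl diphosphate 3 were higher too, and of all genes 20.2%. Sc5d was at 55.2, 56.9 and 52.3 CPM in HAS2_Tg and at 38.9, 41.3 and 40.4 CPM in Has2_KO, with the groups well apart (log2 fold change 0.45, SE 0.08, adjusted p = 0.000333; 0.27 with total counts, adjusted p = 0.0126). Dhcr7 was at 26.6, 24.4 and 24.9 against 17.5, 21.6 and 19.9 CPM, without overlap (0.36, SE 0.10, adjusted p = 0.0107). That call ended without Has2_KO replicate 7, the lowest library (adjusted p = 0.0755), and with total counts (0.19, adjusted p = 0.143). Ebp was at 39.0, 32.6 and 25.1 against 20.1, 25.3 and 25.7 CPM, which overlap (0.44, SE 0.15, adjusted p = 0.0293). The Ebp call ended without HAS2_Tg replicate 4 or 5 or Has2_KO replicate 7 or 8 (adjusted p 0.0655, 0.0856, 0.126 and 0.0544). With total counts Ebp was at 0.27 with an adjusted p of 0.151. The demethylase Cyp51 (-0.10, SE 0.08), the methyl oxidase Msmo1 (0.09, SE 0.09), the dehydrogenase Nsdhl (0.04, SE 0.10), the ketoreductase Hsd17b7 (-0.24, SE 0.12) and the reductase Tm7sf2 (0.00, SE 0.34) did not pass. Hsd17b7 passed without Has2_KO replicate 7 (-0.36, adjusted p = 0.0407). The call of Cyp51 with total counts was at -0.27 (adjusted p = 0.0116).

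The synthesis genes share a promoter feature that was not used to choose them. RefSeq promoter windows (GRCm38.p6, 250 bases before to 50 after each start) were at hand for 25 of the 31 genes, and Fdps, Fdft1, Sqle, Scarb1, Stard4 and Abcg1 had none in the table used. The letters ATTGG on either strand (CCAAT when read on the other), the core of the box bound by the factor NF-Y, were in 14 of the 15 synthesis genes with a window, the exception being Acat2. Of all 27025 genes in the table, 41.1% hold them, as do 42.8% of the 10341 tested genes found there. They were in 4 of the 7 regulators (Srebf1, Srebf2, Insig1 and Insig2), in Soat1, and in neither Abca1 nor Apoe. In all 14 synthesis genes the match nearest to the start lay within 150 bases of it, from 12 bases before the start in Hsd17b7 to 136 in Pmvk. The letters TCACNCCAC on either strand, a short form of the sterol regulatory element, were in Hmgcs1 alone of the 25, and in 1.44% of all genes. An exact direct repeat of AGGTCA with 4 bases between the repeats, a strict form of the type of site that LXR binds, was in none of the 25. It was in 0.0148% of all genes and in 0 of the 10341 tested genes found there. Its absence from the 25 therefore does not show that they lack LXR sites. A match describes these letters only, and no match says nothing about binding within the windows or elsewhere.

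The next stretches are the 150 bases nearest the start, outside the RefSeq gene span and all GENCODE M21 exons, of 4 synthesis genes, shown because they span no call (Hmgcs1), a weak call (Mvk) and both calls that held under either scaling (Pmvk and Sc5d), and of Abca1, the gene that differed most. They are printed 5′ to 3′ on the gene's strand, with CCAAT boxes of either orientation and the sterol regulatory element match in capitals. Their places in GRCm38.p6 are chr13:119690201-119690350 (plus strand) for Hmgcs1, chr5:114444114-114444263 (plus) for Mvk, chr3:89454391-89454540 (plus) for Pmvk, chr9:42264301-42264450 (minus) for Sc5d and chr4:53159989-53160138 (minus) for Abca1.
Hmgcs1: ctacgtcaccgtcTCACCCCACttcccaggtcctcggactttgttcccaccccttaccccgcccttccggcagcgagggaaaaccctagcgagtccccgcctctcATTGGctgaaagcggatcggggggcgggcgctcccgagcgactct
Mvk: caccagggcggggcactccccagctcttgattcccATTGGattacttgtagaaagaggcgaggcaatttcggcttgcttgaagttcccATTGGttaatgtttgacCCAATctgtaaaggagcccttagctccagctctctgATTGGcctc
Pmvk: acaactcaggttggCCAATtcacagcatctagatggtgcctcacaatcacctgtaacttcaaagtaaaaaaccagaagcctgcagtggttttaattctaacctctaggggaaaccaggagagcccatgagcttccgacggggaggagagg
Sc5d: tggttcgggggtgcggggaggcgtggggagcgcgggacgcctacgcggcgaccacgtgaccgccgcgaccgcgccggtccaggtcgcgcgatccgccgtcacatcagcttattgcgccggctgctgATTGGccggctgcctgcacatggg
Abca1: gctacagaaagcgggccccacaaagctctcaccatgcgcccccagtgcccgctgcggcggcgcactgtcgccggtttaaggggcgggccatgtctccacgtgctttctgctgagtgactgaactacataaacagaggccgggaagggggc

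Mvk holds 4 CCAAT boxes in this stretch, Hmgcs1, Pmvk and Sc5d hold 1 each and Abca1 holds none. In the whole 250 bases before the start, Mvk holds 5, Hmgcs1 holds 3, and Pmvk and Sc5d hold 1 each. The log2 fold changes of Mvk, Hmgcs1, Pmvk and Sc5d were 0.31, 0.09, 0.53 and 0.45. A link between boxes and fold changes was not tested.

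Among the 7 regulators, 3 were lower in HAS2_Tg, namely Nr1h3, Insig1 and Scap, and 1, Nr1h2, was higher (all genes: 20.5% lower and 20.2% higher). Insig1, which retains the Scap complex and is itself a target of the SREBP factors, was at 42.2, 43.9 and 42.0 CPM in HAS2_Tg and at 53.1, 56.0 and 54.3 CPM in Has2_KO. The groups were tight and well apart (log2 fold change -0.35, SE 0.08, adjusted p = 0.00193). Its paralogue Insig2, which does not depend on SREBP in the same way, was at 22.9, 26.9 and 20.9 against 18.5, 20.6 and 19.7 CPM, close to each other but without overlap (0.26, SE 0.11, adjusted p = 0.065). Insig2 passed without HAS2_Tg replicate 4 (0.28, adjusted p = 0.0473) or 6 (0.35, adjusted p = 0.0185). Scap was at 75.3, 72.6 and 69.6 against 79.6, 87.5 and 84.9 CPM (-0.21, SE 0.08, adjusted p = 0.0375). The Scap call ended without any 1 of the libraries other than HAS2_Tg replicate 4 (adjusted p 0.051 to 0.144), and with the DESeq2 Wald test (adjusted p = 0.0588). It held with total counts (-0.39, adjusted p = 0.000787).

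Neither Srebf1 nor Srebf2 passed under TMM scaling. Srebf1 was at 73.9, 76.7 and 68.7 CPM in HAS2_Tg and at 82.4, 81.8 and 84.2 CPM in Has2_KO, lower in each HAS2_Tg library but short of the threshold (-0.18, SE 0.08, adjusted p = 0.0716). It passed with total counts (-0.35, adjusted p = 0.00177) and without HAS2_Tg replicate 4 (-0.19, adjusted p = 0.0347). Srebf2 was at 106, 118 and 125 against 110.5, 114 and 110.1 CPM, which overlap (0.06, SE 0.08, adjusted p = 0.541). The 2 LXR genes went opposite ways under TMM scaling. Nr1h3 was at 6.10, 5.41 and 4.89 against 8.74, 8.42 and 7.55 CPM, without overlap (-0.59, SE 0.15, adjusted p = 0.00536). Nr1h2 was at 91.8, 83.2 and 74.0 against 71.7, 70.8 and 65.4 CPM (0.26, SE 0.09, adjusted p = 0.0289). The Nr1h2 call was lost with total counts (0.09, adjusted p = 0.448) and without any 1 library other than HAS2_Tg replicate 6 (adjusted p 0.0591 to 0.135). Nr1h3 is also expressed by macrophages, whose markers summed to 13.9 to 16.3 CPM in HAS2_Tg and 614 to 659 in Has2_KO, and their part in its difference was not tested.

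Soat1, the enzyme that esterifies cholesterol for storage, was at 28.9, 32.0 and 28.2 CPM in HAS2_Tg and at 50.6, 58.9 and 55.6 CPM in Has2_KO. The highest HAS2_Tg library lay far below the lowest Has2_KO library, a ratio of means of 1.85 (log2 fold change -0.89, SE 0.09, adjusted p = 1.39e-06). It lies on chromosome 1 from 156428108 to 156474328 (GRCm38). Scarb1, the receptor for selective uptake from HDL, was at 128, 122 and 138 against 105, 103 and 101 CPM, higher in every HAS2_Tg library (0.33, SE 0.07, adjusted p = 0.00272). With total counts Scarb1 was at 0.15 (adjusted p = 0.106). Stard4, a cytosolic sterol carrier, was at 8.07, 10.9 and 9.79 against 11.1, 11.9 and 10.8 CPM, which overlap (-0.23, SE 0.13, adjusted p = 0.183).

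Both export transporters were lower in HAS2_Tg and Apoe was not called. Abca1, which loads cholesterol onto lipid-poor apolipoproteins, was at 11.2, 12.4 and 15.9 CPM in HAS2_Tg and at 51.0, 53.9 and 51.6 CPM in Has2_KO. The Has2_KO libraries lay close together and every one was more than 3 times as high as the highest HAS2_Tg library, and the ratio of the means was 3.96 (log2 fold change -1.98, SE 0.11, adjusted p = 2.53e-09). It lay between -2.16 and -1.54 over all 17 other fits and passed in each. Abca1 is on chromosome 4 from 53030789 to 53159988 (GRCm38). Abcg1, which passes cholesterol to mature HDL, was at 19.9, 16.0 and 16.95 against 28.3, 28.8 and 28.9 CPM, a ratio of means of 1.63 without overlap (-0.70, SE 0.10, adjusted p = 5.16e-05). Abcg1 is on chromosome 17 from 31057694 to 31117984. Apoe was at 642, 499.6 and 539 against 611, 542 and 591 CPM, with the highest and the lowest value both in HAS2_Tg (-0.05, SE 0.09, adjusted p = 0.68).

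Macrophages and endothelial cells also express Abca1, Abcg1 and Soat1. Beside the lower values of these genes in HAS2_Tg stand the macrophage list (15 of 15 tested lower, 13.9 to 16.3 against 614 to 659 CPM in all) and the endothelial list (12 of 12 lower, 7.54 to 8.63 against 923 to 1014 CPM), and the part of those cells in the differences was not tested.

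**Figure D3:**
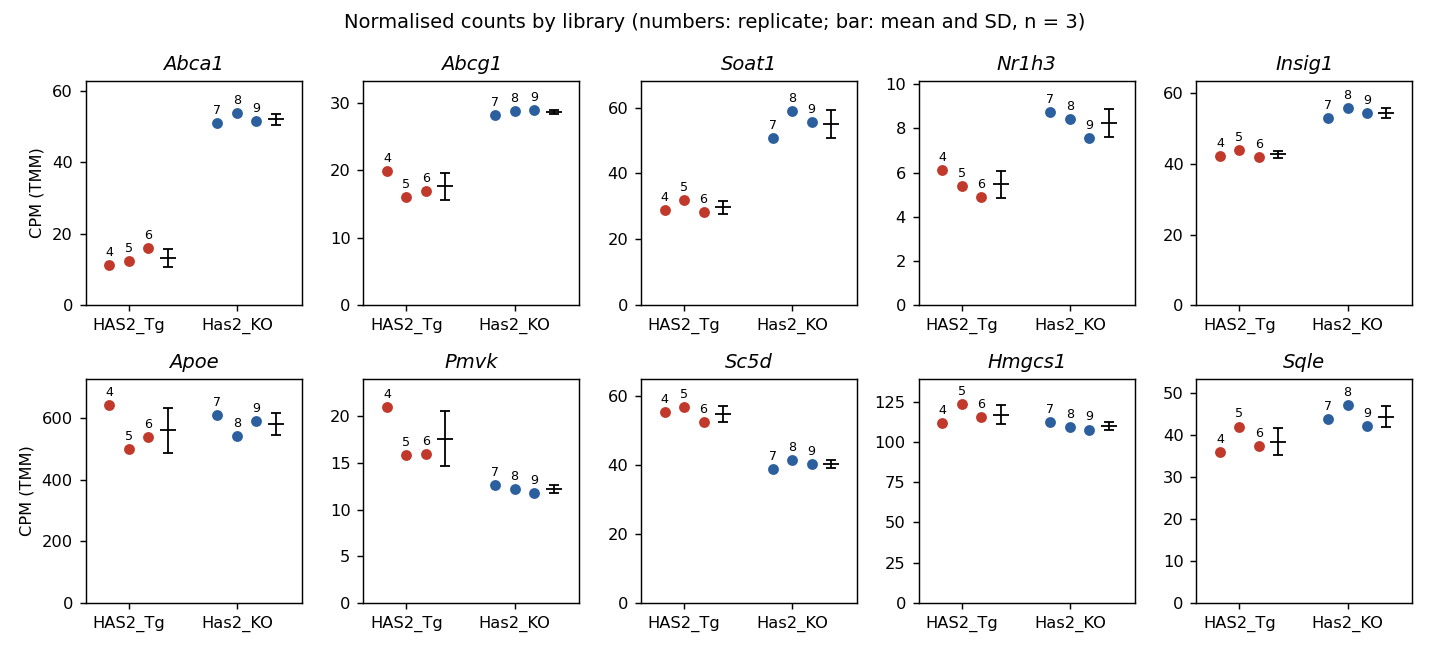
CPM (TMM-scaled, axes from 0) in each library for 10 of the genes, with the replicate number over each point and the mean ± SD (n = 3) beside it. Abca1, Abcg1, Soat1, Nr1h3 and Insig1 are lower in every HAS2_Tg library, Pmvk and Sc5d are higher in every one, and Apoe and Hmgcs1 overlap.

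Other genes of the pathway, from 5 written lists, were read beside the members. Among targets of LXR and genes of efflux and oxysterol metabolism, 3 of 13 tested were higher and 5 lower (all genes: 20.2% and 20.5%). Arl4c, a small GTPase and LXR target, was at 12.7, 15.1 and 14.1 CPM in HAS2_Tg against 37.9, 41.0 and 36.8 in Has2_KO (log2 fold change -1.46, SE 0.10, adjusted p = 1.79e-08). Mylip, an LXR-induced ubiquitin ligase (-0.33), and the transporter Abca7 (-0.33) also passed. The other way, the sterol 27-hydroxylase Cyp27a1 was at 21.3, 23.4 and 16.8 against 11.5, 8.95 and 11.8 CPM (0.93, SE 0.14, adjusted p = 8.15e-05), the phospholipid transfer protein Pltp, another LXR target, had 0.60 (SE 0.09) and the LXR partner Rxra 0.27 (SE 0.08). The calls of Mylip (without HAS2_Tg replicate 5 or Has2_KO replicate 7 or 8, adjusted p 0.0769 to 0.129), Abca7 (without any library other than HAS2_Tg replicate 4, 0.0612 to 0.148) and Rxra (without Has2_KO replicate 7, 0.0948, or with total counts, 0.314) were lost in single fits.

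Of 18 genes of uptake and intracellular transport, 2 were higher and 8 lower (all genes: 20.2% and 20.5%). The scavenger receptors Msr1 (0.50 ± 0.14 against 57.5 ± 3.98 CPM, SD, n = 3; log2 fold change -6.82) and Cd36 (0.56 ± 0.23 against 56.7 ± 3.93 CPM; -6.64), which macrophages and endothelial cells carry, were close to absent in HAS2_Tg. The cholesteryl ester hydrolase Nceh1, which frees cholesterol from stored ester, was at 6.37, 4.71 and 4.72 against 24.5, 22.6 and 21.6 CPM (-2.12, SE 0.13, adjusted p = 7.01e-09). Soat1 and Nceh1, which act in opposite directions on the ester pool, were both lower in HAS2_Tg, and the macrophage markers, at 13.9 to 16.3 against 614 to 659 CPM, moved with them, and the part of macrophages was not tested. The receptor chaperone Lrpap1 was higher at 0.53 (SE 0.08, adjusted p = 5.24e-05), and so was the oxysterol-binding protein gene Osbpl9 (0.21, adjusted p = 0.0272; 0.04 with total counts, adjusted p = 0.679). Osbpl9 did not pass without Has2_KO replicate 7, 8 or 9 (adjusted p 0.0889 to 0.104).

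Of 11 fatty acid genes that SREBP-1 controls, 4 were higher and 4 lower in HAS2_Tg (all genes: 20.2% and 20.5%). Calls were thus more common in this list than among all genes, with the directions evenly split in both. The desaturase Fads2 was at 98.6, 116 and 104 CPM against 47.6, 55.1 and 53.6 (log2 fold change 1.03, SE 0.09, adjusted p = 2.06e-07), malic enzyme Me1 had 0.56 (SE 0.07) and the desaturase Scd2 0.53 (SE 0.07), and these 3 also passed with total counts. The elongase Elovl6 (-0.46), the fatty acid synthase Fasn (-0.31) and the carboxylase Acaca (-0.28) were lower. The Fasn call ended without Has2_KO replicate 8 (adjusted p = 0.055) and the Acaca call without any 1 Has2_KO library (0.0532 to 0.0725).

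Of 10 genes of SREBP processing and turnover, 1 was higher and 2 lower, against 20.2% and 20.5% of all genes. The COPII coat gene Sec24a had -0.59 (SE 0.10, adjusted p = 0.000346) and the site-2 protease Mbtps2, which makes the second cut in SREBP, -0.34 (adjusted p = 0.0163; lost without Has2_KO replicate 7, 0.0553, or 9, 0.0771). The coat gene Sec23a had 0.25 (adjusted p = 0.0411), lost with total counts (0.08, adjusted p = 0.531) and without any library other than HAS2_Tg replicate 4 (adjusted p 0.07 to 0.17). Of 12 tested genes of acetyl-CoA supply, alternative enzymes and the isoprenoid branch, 2 were higher and 2 lower (all genes: 20.2% and 20.5%). The higher ones were the mitochondrial thiolase Acat1 (0.51, SE 0.09, adjusted p = 0.000212) and the Ebp relative Ebpl (0.73, SE 0.21, adjusted p = 0.0116). Nus1, of dolichol synthesis, was lower (-0.41, SE 0.08, adjusted p = 0.000624). Acat3, a close copy of Acat2 on chromosome 17, was also lower (-0.23, adjusted p = 0.0438), and reads of Acat2 and Acat3 may have been shared between them. The Acat3 call ended without HAS2_Tg replicate 6 or any 1 Has2_KO library (adjusted p 0.102 to 0.135) and with the DESeq2 Wald test (0.0907), and that of Ebpl without Has2_KO replicate 7 (0.0644) or 8 (0.0555).

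**Figure D4:**
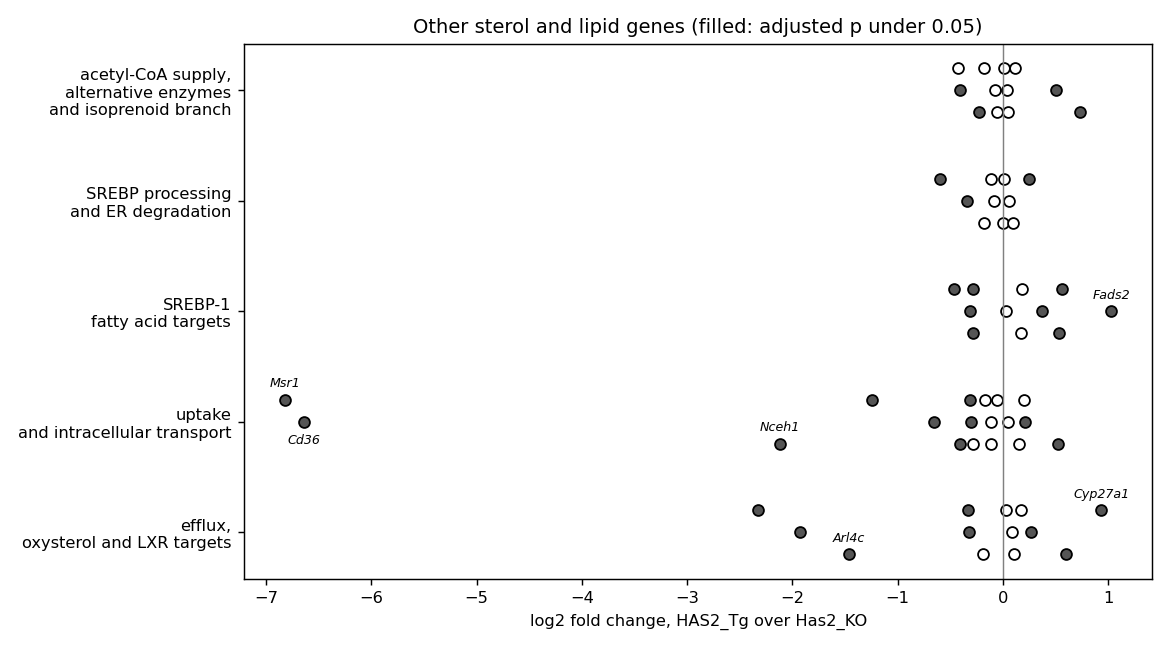
Log2 fold changes (HAS2_Tg over Has2_KO, TMM) of the tested genes of 5 further sterol and lipid lists, 1 point per gene, filled where the adjusted p is under 0.05; points are set apart vertically only to be seen, and a few genes named in the text are labelled. Msr1 and Cd36 lie near -7, Nceh1 and Arl4c lie between -1 and -3, and Fads2 and Cyp27a1 lie near 1.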

How the data were processed

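Per the file headers, each of the 6 deposited tables lists genes of a library by NCBI identifier, with a length, an expected count and FPKM. The authors' expected counts estimate the reads of each gene and came from RSEM on mm10, per the submitters' processing notes, which give no version. FPKM, also deposited by the authors, divide by length and depth. A gene missing from a table was set to 0. Names came from RefSeq GRCm38.p6, the assembly of mm10, for 17857 of 17909 identifiers.

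After rounding and a low-count filter (filterByExpr), TMM factors were computed and all genes were fitted together with the robust quasi-likelihood method of edgeR 4.0.16 (R 4.3.3), two-sided, with Benjamini-Hochberg adjustment and a threshold of 0.05. Log2 fold changes are HAS2_Tg over Has2_KO, SE, the standard error, is their absolute value over the root of F, and CPM are TMM-scaled. The script was tested on simulated data. Members and lists were chosen with earlier results of these data known, so lists carry counts and medians only. All members are named, and from each further list up to 3 genes per direction, by adjusted p, if the higher group reached 5 CPM. Alternatives were 3 other scalings (DESeq2 size factors, total counts, upper quartile), no filter, a strict filter (1 CPM in every library of either group and a mean of 5), the Wald test of DESeq2 1.42.0, limma 3.58.1 on FPKM with pseudocounts of 1 and 0.1 where at least 3 libraries reached 1 FPKM, or unfiltered, omission of single libraries, a threshold of 0.01, a fold of 1.5, and removal of marker genes of other cells. Exon overlaps used GENCODE M21 (GRCm38).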

Additional observations from a re-analysis of the deposited data

How the results depend on the processing

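Over 18 alternatives, 801 of 1006 values of single genes kept their direction and their side of the threshold, 136 lost the call, 34 gained one and 35 turned direction, none of them called in either fit. With total counts, limma on log2(FPKM + 1) (the same without a filter) and limma on log2(FPKM + 0.1), the turned values were -0.084, -0.084 and -0.087 for Hmgcs1, -0.079, -0.081 and -0.084 for Idi1, -0.128, -0.127 and -0.133 for Fdft1, -0.171, -0.089 and -0.151 for Tm7sf2, -0.082, -0.079 and -0.081 for Msmo1, -0.140, -0.135 and -0.144 for Nsdhl, and -0.109, -0.109 and -0.113 for Srebf2. With single libraries left out, the values ran from -0.023 to 0.142 for Fdft1, -0.205 to 0.009 for Lss, -0.340 to 0.380 for Tm7sf2, -0.064 to 0.126 for Nsdhl and -0.166 to 0.026 for Apoe. At an adjusted p of 0.01, 9 of the 31 genes passed, against 28.7% of all genes. A test against a fold of 1.5 left 2 of the 31 and 1597 of all genes (12.3%). With each library left out, 10 to 14 of the 31 genes were called (4188 to 5624 of all genes). The count higher in HAS2_Tg, 8, fell to 4 without Has2_KO replicate 7 and to 5 without HAS2_Tg replicate 5. Without HAS2_Tg replicate 4 it was 6, with 8 lower. The DESeq2 Wald test called 12 of the 31, and 36.2% of all genes. Total counts and limma on log2(FPKM + 1) both gave 2 higher and 13 lower of the 31, and called 48.4% and 47.5% of all genes they tested. Of the 14 called genes, 9 passed with each library left out in turn: Pmvk, Fdps, Sc5d, Insig1, Nr1h3, Scarb1, Soat1, Abca1 and Abcg1. No paired analysis was possible because the groups share no replicate numbers. Acat2 passed without a low-count filter (adjusted p = 0.0413), Srebf1 with the strict filter (0.0495) and Mvd with limma on log2(FPKM + 1) (0.0465). Tm7sf2 had a mean of 23 counts per library and an SE of 0.34, so a difference of the size fitted for Mvk (0.31) was not detectable for it.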
